A study of Mus musculus with 18 samples.

Results

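The response of mouse liver to the cytokine interleukin-1β (IL-1β) was measured in total RNA, in the 6 libraries of the series prepared with the SMARTer Pico kit for stranded total RNA (Pico), out of 18 libraries in all. The 12-week-old male mice were of the strain C57/B6J, with no genotype other than the strain given. Liver was taken 4 hours after injection of either 20 µg/Kg of IL-1β (3 mice) or saline (3 mice), and counts are given below in the order of the mouse numbers within a treatment. All 6 Pico libraries and all genes of their table were used, which gave 18108 genes with a count above 0 in at least 1 library. RNA of the same mice was also made into libraries with 2 kits that enrich RNA with poly(A) tails, the TruSeq Stranded mRNA kit (6 libraries) and the SMART-Seq v4 Ultra Low Input kit (V4, 6 libraries), which serve here only for comparison.

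IL-1β signals through its receptor and the adaptor MyD88 to NF-κB and MAP kinases, and in liver it also acts through IL-6 and STAT3 to start the acute-phase response, in which hepatocytes secrete plasma proteins of host defence while much of their metabolic programme is turned down. The Pico kit primes RNA at random positions and depletes ribosomal sequence, in place of selecting poly(A) tails. It therefore also reads RNAs that end without such a tail, among them the 7SL RNA of the signal recognition particle, the spliceosomal U RNAs, small nucleolar RNAs (snoRNAs) and the messages of replication-dependent histones, and it reads long transcripts along their length. A replication-dependent histone message ends just after a hairpin, which the stem-loop binding protein holds and the U7 particle uses to place the cut.

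The hairpins of the histone genes counted here are shown first, because they mark the messages that end without a poly(A) tail. A search of the mm9 genome within each gene and up to 100 bases past its end found a hairpin of 16 bases, with a stem of 6 pairs, in 58 of the 63 replication-dependent histone genes tested and in all 9 of those whose counts averaged 20 or more. In the lines below the 16 bases of the hairpin are in capitals, with coordinates of the printed stretch on mm9.
Hist1h1e, chr13:23713646-23713671, minus strand: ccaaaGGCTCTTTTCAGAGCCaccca
Hist1h1c, chr13:23831376-23831401, plus strand: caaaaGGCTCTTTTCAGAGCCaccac
Hist1h2bc, chr13:23776511-23776536, plus strand: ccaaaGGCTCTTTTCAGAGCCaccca
Hist1h4h, chr13:23623322-23623347, plus strand: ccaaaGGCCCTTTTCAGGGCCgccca
Hist1h4d, chr13:23673814-23673839, plus strand: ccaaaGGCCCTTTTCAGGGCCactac
Hist2h2ac, chr3:96024336-96024361, minus strand: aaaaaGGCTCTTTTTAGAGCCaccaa
The annotated gene went on for 27 bases after the hairpin in Hist1h1e, 46 in Hist1h4h, 25 in Hist1h4d and 57 in Hist2h2ac. It went on for 839 bases in Hist1h1c and for 7826 bases of genomic sequence in Hist1h2bc, so that these 2 genes also have an annotated form that runs past the hairpin.

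A second set of sequences is shown for the pathway that IL-1β starts. The κB motif, to which NF-κB binds, was searched on both strands in the 250 bases before each RefSeq start (GRCm38.p6), and 3.9% of the 32851 windows held it. Of the genes of the Pico table, 10674 could be matched to a promoter, and 5.71% of them had the motif. It was found in 9 of 21 matched genes of NF-κB subunits, inhibitors and feedback regulators (42.9%) and in 7 of 19 matched chemokines and adhesion molecules (36.8%), but in only 2 of 28 matched acute-phase genes (7.14%). The windows below were chosen after the values were seen, with the motif in capitals. The first 3 belong to genes that rose and the last 3 to genes that were not called.
Nfkb2, chr19:46305695-46305724, plus strand: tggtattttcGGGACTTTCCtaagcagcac
Il1r1, chr1:40266344-40266373, plus strand: cagggattttGGAATGCCCCcaaggagatg
Tnip1, chr11:54962978-54963007, minus strand: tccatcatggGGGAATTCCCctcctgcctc
Nfkbia, chr12:55492657-55492686, minus strand: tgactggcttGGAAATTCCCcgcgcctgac
Tnfaip3, chr10:19015516-19015545, minus strand: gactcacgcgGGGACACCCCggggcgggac
Cxcl1, chr5:90891164-90891193, plus strand: cctgtactccGGGAATTTCCctggcccgga

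The Pico libraries held between 4024632 and 4134070 counts, with 14354 to 15217 genes above 0 in each. The TruSeq libraries held 12348864 to 12858237 counts, so raw counts of different kits printed below are not on 1 scale. A gene was called when its adjusted p in limma-voom was at most 0.05 with library totals and also with TMM factors, a scaling that is robust to a few abundant genes, and with the same sign. After IL-1β, 1228 genes were higher (6.78% of those tested) and 1478 were lower (8.16%). Of the called genes, 708 rose and 951 fell by at least 1 on the log2 scale. Fold changes below are log2 values of IL-1β against saline with library totals. TMM factors raised every such value by about 0.13 at the median, so changes are read relative to a median of -0.12 over the 9687 genes whose counts averaged 20 or more, called well-counted genes below. The counts of genes higher and genes lower would have been 1228 and 1951 with library totals alone, and 1658 and 1478 with TMM factors alone. Among the well-counted genes 10.6% were called higher and 12.9% lower, and gene lists below are set against these shares.

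**Figure D1:**
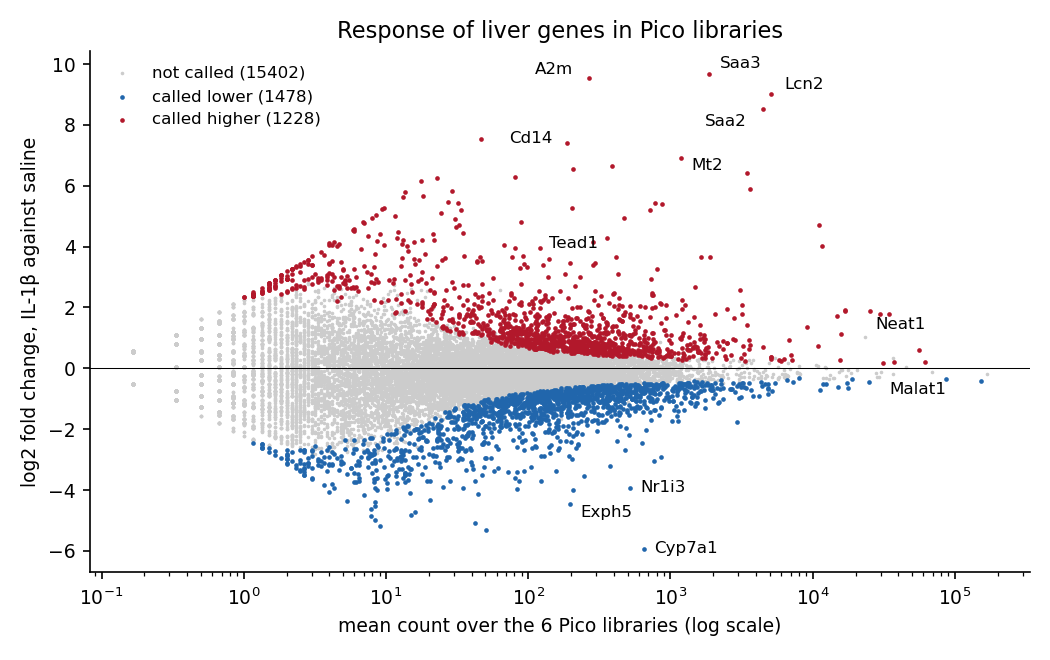
Log2 fold change of IL-1β against saline (y axis) for each of 18108 genes against its mean count over the 6 Pico libraries (x axis, log scale). Red points are the 1228 genes called higher, blue points the 1478 called lower and grey points those not called. Saa3, A2m, Lcn2 and Saa2 sit above 8, Cyp7a1 lies near -6, and Neat1 is grey in spite of its high count.

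Plasma proteins of the acute phase gave the largest rises. Saa3, an inducible serum amyloid A (chr7:53967368-53971046, mm9, minus strand), had 3558, 3533 and 4174 counts after IL-1β and 6, 2 and 6 after saline. This was a rise of 9.66 ± 0.61 (SE, 3 mice a group, limma-voom adjusted p = 1.5e-08). Lcn2 (chr2:32240153-32243317), which encodes lipocalin 2, a protein that takes iron carriers away from bacteria, had 8873, 10806 and 11012 counts against 20, 20 and 18. Its rise was 9.03 ± 0.40 (limma-voom adjusted p = 1.62e-10). The protease inhibitor gene A2m had 565, 381 and 666 counts against 1, 0 and 0, a ratio of 1642 over all counts with a 95% exact counting interval of 294 to 64897. In all 3 genes every IL-1β library lay far above every saline library, and the rule that named them asked for groups that do not overlap.

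Of the 40 acute-phase genes 35 were called higher and none lower, and the median change over the 39 well-counted members was 1.90, against -0.12 over all such genes. Saa2 rose by 8.53 ± 0.31 and Saa1 by 6.43 ± 0.21. These are neighbouring genes of nearly the same sequence, so the share of reads given to each is uncertain. The lipopolysaccharide co-receptor Cd14 rose from 0, 2 and 8 counts to 426, 388 and 306. The metallothionein Mt2, which binds zinc and copper, rose from 29, 6 and 39 to 2349, 2355 and 2289 counts, a change of 6.92 ± 0.42. Already abundant members rose by less, as did haptoglobin (Hp), which binds free haemoglobin, by 1.88 ± 0.08 from 7864, 6453 and 7702 counts to 23735, 27624 and 27964. The members not called were Hamp2, Vnn1, the ferritin subunits Fth1 and Ftl1, and the weakly counted Orm3.

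Of 23 plasma protein genes listed as falling in the acute phase, 6 were called lower and none higher, with a median of -0.31. Albumin (Alb), the main plasma protein, had 139600, 116025 and 131116 counts after IL-1β and 155992, 174920 and 200107 after saline, and fell by 0.43 ± 0.07 (limma-voom adjusted p = 0.000274). Larger falls were seen in Igfals, which stabilises circulating IGF, at -1.80 ± 0.21, and in the corticosteroid carrier Serpina6 at -0.75 ± 0.17.

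**Figure D2:**
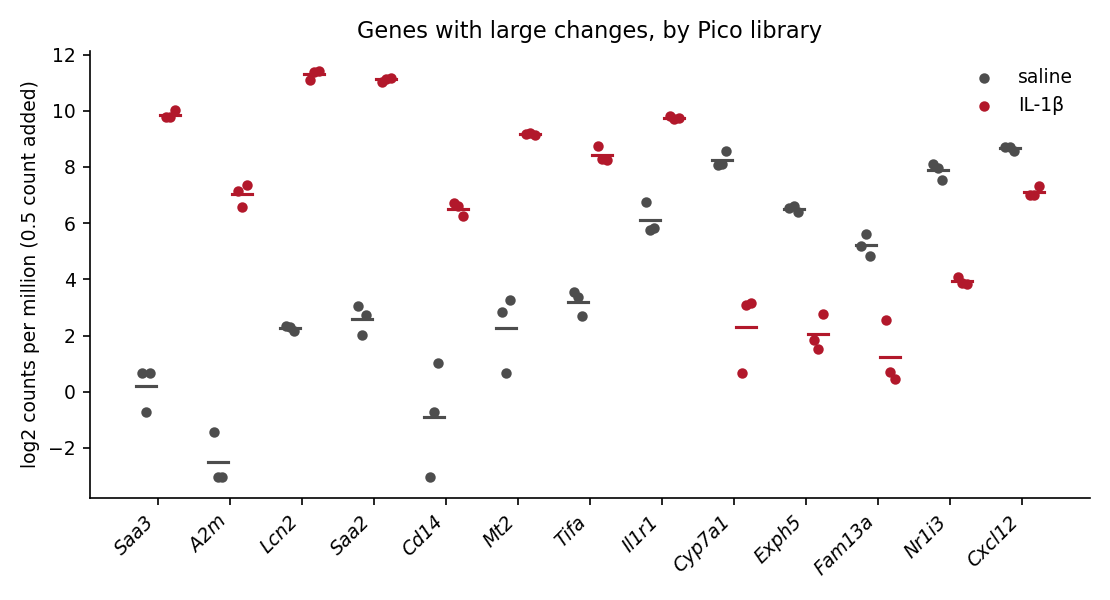
Log2 CPM, the counts scaled to equal library totals (y axis, with 0.5 count added) in each Pico library for 13 genes with large changes. Grey points are the 3 saline libraries, red points the 3 IL-1β libraries and bars their means. The groups do not overlap in any of the 13 genes, as in 98% of all called genes.

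Genes of the IL-1β and NF-κB pathway rose at several levels of the cascade. Of 25 members tested 15 were called higher and 1 lower, with a median of 1.14. Among receptors, Il1r1 had 3598, 3396 and 3501 counts after IL-1β against 437, 223 and 234, a rise of 3.65 ± 0.17 (limma-voom adjusted p = 2.2e-10). The adaptor Tifa rose by 5.22 ± 0.32 and Myd88 by 2.21. Among the subunits, Nfkb2 had 286, 252 and 142 counts against 12, 8 and 27, and rose by 3.95 ± 0.54, while Rela rose by 1.17 and Nfkb1 by 0.93. The negative regulator Irak3 rose by 3.95, whereas the kinase gene Irak2 fell by 1.18 ± 0.34, from 112, 93 and 73 counts to 48, 21 and 59, and was at -0.75 and not called without the second IL-1β mouse. The classical early feedback gene Nfkbia, which encodes IκBα, had 135, 107 and 95 counts against 143, 101 and 88 at this time point, so the groups overlapped (0.06, limma-voom adjusted p = 0.88). Tnfaip3 (0.46) was not called either. Of the 9 members with a κB motif in the window, 4 were called higher (Il1r1, Nfkb2, Tnip1 and Tank) and 5 were not called.

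Of 29 chemokines and adhesion molecules, 10 were called higher and 2 lower, and 10 members were well counted. Cxcl9, which attracts T cells, had 1928, 1472 and 1150 counts against 32, 25 and 49, a rise of 5.45 ± 0.38. Ccl6 rose by 3.34 ± 0.41. The neutrophil attractant Cxcl1 had 229, 72 and 57 counts against 77, 20 and 73, and its 1.04 was not called. The 2 members that fell were Cxcl12, a constitutive chemokine, with 519, 513 and 644 counts against 1698, 1723 and 1581 (-1.56 ± 0.11), and the weakly counted Cxcl11 (-3.77 ± 0.84). Cxcl11 is annotated here as a processed transcript.

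In the IL-6, STAT and SOCS list 13 of 26 members rose and 2 fell. The feedback inhibitors Socs2 and Socs3 rose by 2.13 ± 0.34 and 1.99 ± 0.44, and Stat3 by 1.69. The receptor gene Lifr fell by 1.24 ± 0.13 and the hepatocyte factor Cebpa fell by 1.15 ± 0.13, with counts for Cebpa of 698, 785 and 690 against 1351, 1680 and 1915. Of 32 immediate early genes and MAP kinase phosphatases 9 rose and 2 fell. The cell cycle inhibitor Cdkn1a had 164, 201 and 109 counts against 0, 4 and 3, while the ERK phosphatase Dusp6 fell by 1.81 ± 0.31. Of 30 interferon-stimulated genes 8 rose, all of them GTPases of the Gbp and Irg families, and 1 fell. Gbp6 had 2003, 1703 and 1376 counts against 59, 21 and 51 (5.40 ± 0.34). The antiviral genes Ifit1 (1.2), Isg15 (1.14) and Rsad2 (0.41) were not called, and the member that fell was the factor Irf1, with 40, 55 and 33 counts against 138, 120 and 136 (-1.61 ± 0.26).

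Markers of other cells moved beside these inflammatory genes. Of 14 neutrophil markers 5 had no row in the table, and the other 9 were all called higher, against 6.78% of all genes tested. Only 2 of them were well counted. Markers without saline counts were tested only through their IL-1β counts, so this number is no independent support. The summed counts of the 9 were 186 to 254 after IL-1β and 4 to 25 after saline. S100a9 had 57, 62 and 69 counts against 1, 1 and 1, and Cxcr2 had 29, 28 and 24 against 0 in each saline library. Of 14 macrophage markers, 3 (Clec4f, Csf1r and Vsig4) were called lower and none higher, with summed counts of 579 to 798 against 1004 to 1311. Of 12 endothelial markers 2 were called higher and 4 lower, of 11 stellate cell markers 2 were lower, of 6 cholangiocyte markers 1 was higher, and no erythroid marker was called. Of the lymphocyte markers only Ncr1, with 1, 3 and 5 counts against 0, was called, and the list summed to 16 to 20 counts against 15 to 20. In these bulk samples fewer cells of a type and less RNA per cell cannot be told apart, and the part that these cells play in the immune gene groups above was not tested. The hepatocyte markers summed to 223701 to 245210 counts after IL-1β and to 276335 to 336822 after saline, with 2 of 10 called higher and 4 lower.

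Of 32 genes of protein folding, translocation and the unfolded protein response in the endoplasmic reticulum, 19 were called higher, 1 lower and 12 neither, with a median of 0.45. The stress factor Ddit3 rose by 2.19 ± 0.38, from 35, 61 and 14 counts to 116, 149 and 161. Creld2 rose by 2.15 ± 0.18 and the chaperone Hspa5 by 1.37. The stress sensor kinase Ern1 was the member that fell, with 281, 279 and 288 counts against 606, 557 and 603 (-1.03 ± 0.13).

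**Figure D3:**
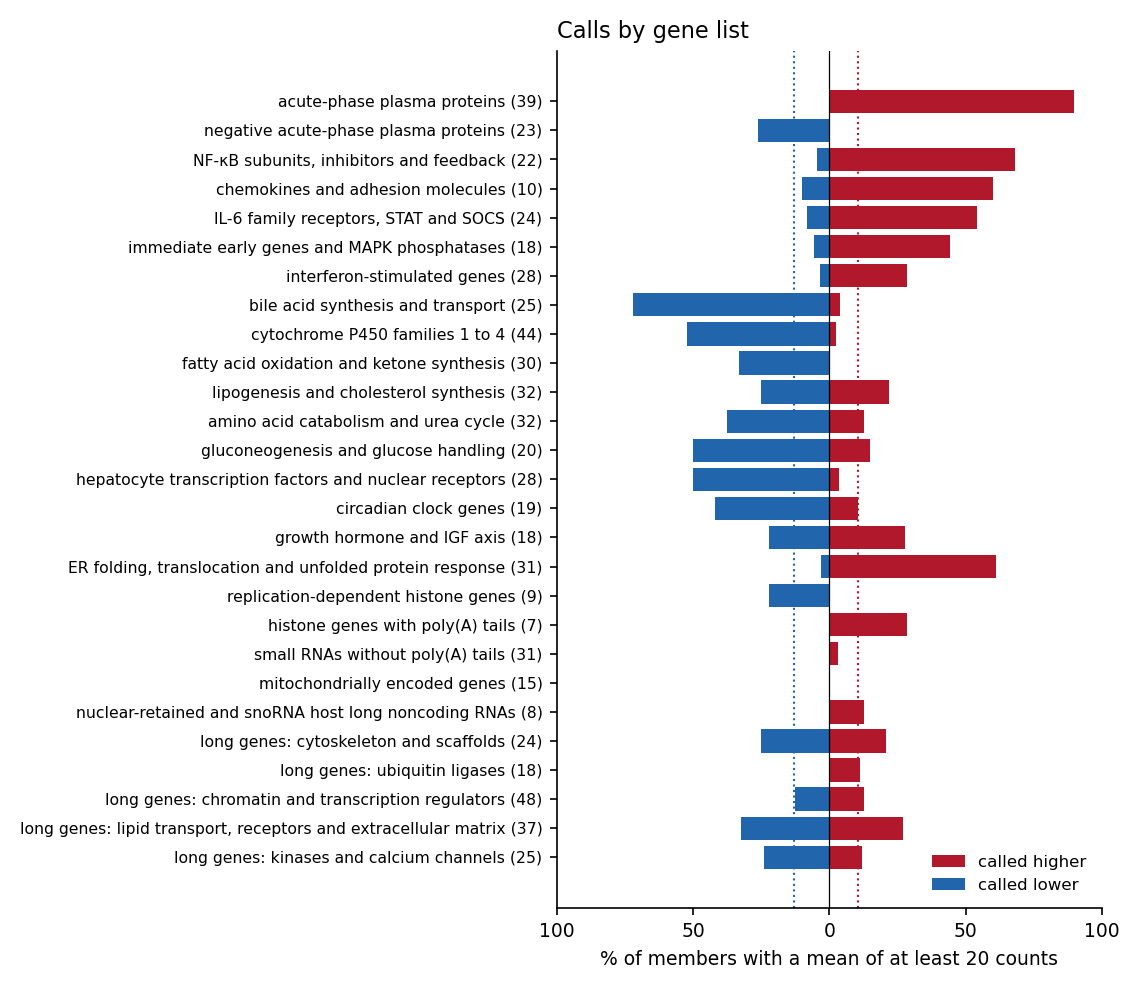
Share of each gene list called higher (red, to the right) or lower (blue, to the left), in % of its well-counted members, whose number is in brackets. Dotted lines mark the shares over all 9687 well-counted genes, 10.6% higher and 12.9% lower. Acute-phase genes reach 89.7% on the right and bile acid genes 72% on the left, while small RNAs and mitochondrially encoded genes stay inside the lines.

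Among metabolic genes the bile acid list had the highest share of members called lower, 72% of those well counted. Cyp7a1 (chr4:6192759-6202780, mm9), the rate-limiting enzyme of bile acid synthesis, had 6, 34 and 36 counts after IL-1β and 1101, 1145 and 1562 after saline. This was a change of -5.93 ± 0.49 (limma-voom adjusted p = 3.93e-07). Of the 25 genes of bile acid synthesis and transport 18 fell and 1 rose, with a median of -0.69. Klb, the co-receptor for the intestinal hormone that represses Cyp7a1, fell by 2.54 ± 0.28, and so did the sterol exporter Abcg8 (-1.60) and the bile acid importer Slc10a1 (-1.04). The conjugating enzyme Baat rose by 0.36 ± 0.10.

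Of 64 cytochrome P450 genes of families 1 to 4, which clear drugs and lipids, 24 fell and 1 rose. Among the 44 well-counted ones 52.3% fell, and their median was -0.55. The member that rose was Cyp2b10, with 159, 206 and 280 counts against 23, 44 and 77 (2.30 ± 0.35). Its known activator, the constitutive androstane receptor Nr1i3 (chr1:173144101-173150832), had 68, 59 and 57 counts against 1127, 1040 and 771, a change of -3.94 ± 0.25 (limma-voom adjusted p = 1.72e-08). The largest falls in the P450 list were those of Cyp2d37-ps (-2.87 ± 0.61) and Cyp4a31 (-2.45 ± 0.69), which have close copies in the genome, so their counts are uncertain. Of 30 hepatocyte transcription factors and nuclear receptors 14 fell and 1 rose. The riser was Hnf4a, with 3908, 4509 and 4556 counts against 2676, 3118 and 2607 (0.65 ± 0.09).

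None of 31 genes of fatty acid oxidation and ketone synthesis rose and 10 fell, among them Acot1 (-1.91 ± 0.34) and Acsl1, which activates long-chain fatty acids, with 1520, 1158 and 1249 counts against 4491, 4512 and 4544 (-1.77 ± 0.09). Of 21 genes of glucose handling 10 fell and 3 rose. G6pc, which releases free glucose (-2.68 ± 0.45), fell, as did the insulin receptor substrate Irs1 (-2.77 ± 0.31), while Igfbp1 rose by 2.44 ± 0.50 and the glycolytic activator Pfkfb3 by 1.15 ± 0.25. Of 32 genes of amino acid catabolism and the urea cycle 12 fell, such as the histidine-degrading genes Hal (-1.28 ± 0.17) and Ftcd (-1.09 ± 0.14), and 4 rose. The risers included Tat (1.14 ± 0.11) and Sds (1.23 ± 0.20), which break down tyrosine and serine.

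Lipid synthesis split in both directions, with 7 of 33 members called higher and 8 lower. Of the risers 6 act in cholesterol synthesis, and among them Sqle rose by 1.43 ± 0.28 and Mvd by 1.33 ± 0.31. The fallers included the lipogenic factor Srebf1, with 210, 231 and 134 counts against 880, 1734 and 1937 (-2.91 ± 0.30), Gpam (-1.38 ± 0.22) and Fasn (-0.99). The median of the list was -0.03 with library totals and 0.11 with TMM factors, so it has no direction that holds under both scalings. Of 20 clock genes tested 8 fell and 2 rose. Per3 had 19, 20 and 48 counts against 329, 239 and 285 (-3.37 ± 0.34), Usp2 fell by 2.87 ± 0.44, and Nfil3, a repressor of clock outputs, rose by 1.58 ± 0.29. In the growth hormone and IGF list 5 of 19 members rose and 5 fell, the largest fall of a well-counted member being that of Keg1 (-2.44 ± 0.19), with 297, 153 and 156 counts against 1081, 996 and 1125.

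Of the 6 largest falls of genes that averaged 50 counts or more, 3 others have no place in these lists. D0H4S114 had 6, 1 and 1 counts against 112, 82 and 101 (-5.30 ± 0.65). Fam13a had 23, 6 and 5 counts against 147, 203 and 116 (-3.98 ± 0.57). Adh6-ps1, whose symbol is that of an alcohol dehydrogenase pseudogene but whose annotated class is protein coding, had 32, 10 and 33 counts against 551, 322 and 281 (-4.0 ± 0.49), and reads shared with related genes make its level uncertain.

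RNAs without poly(A) tails took a visible share of the Pico counts. Genes annotated as misc_RNA, which hold 7SL and 7SK RNA, made up 2% to 2.48% of the counts of a Pico library and 0.00115% to 0.00214% of a TruSeq library. Spliceosomal and other small nuclear RNAs made up 0.065% to 0.0733% of the Pico counts after IL-1β and 0.0512% to 0.058% after saline. These groups did not overlap, and the difference in the class share was not tested. In TruSeq the same class made up at most 0.00047%. SnoRNAs made up 0.0688% to 0.0818% in Pico against at most 0.00079% in TruSeq. The kits also differ in RNA input, read length and sequencing run, and each table was normalized separately, so these levels are set side by side without a test. In the small RNA classes together, 62 genes were well counted, of which 2 were called higher and none lower, against 10.6% and 12.9% of all genes at that level. Their median count of 68 was below the 105 of all such genes and their median SE of 0.28 was above the 0.24. Their median change was 0.11 with library totals and 0.24 with TMM factors.

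**Figure D4:**
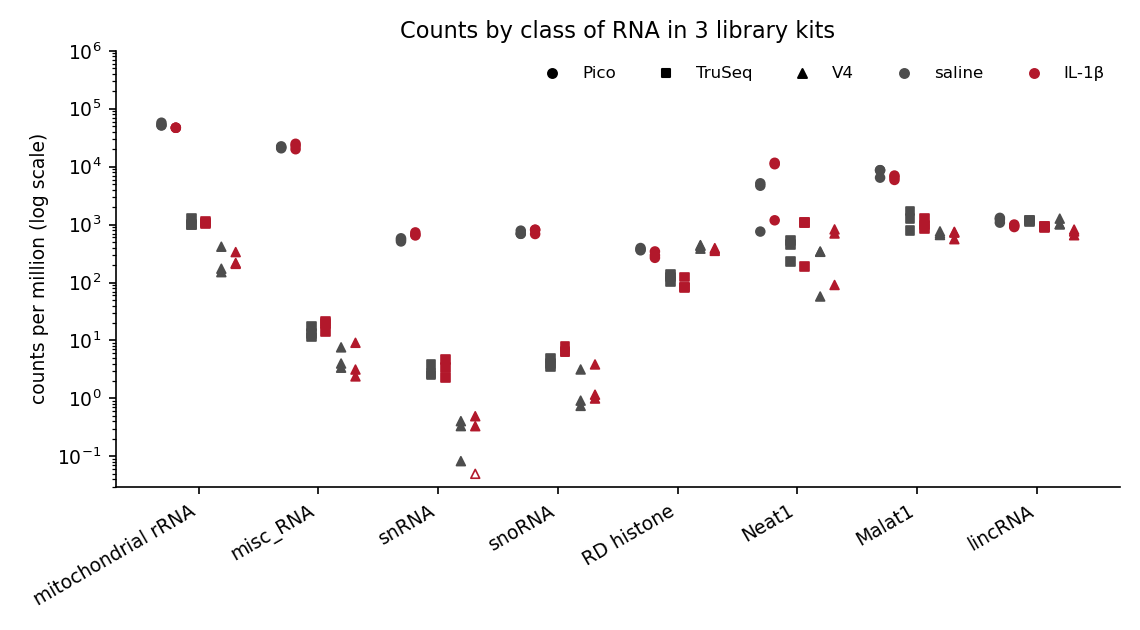
CPM (y axis, log scale) of 8 classes of RNA in each of the 18 libraries, with circles for Pico, squares for TruSeq and triangles for V4, grey for saline and red for IL-1β. RD histone stands for the replication-dependent histone genes, and the open triangle is a library with no count, drawn at the lower edge. Small RNA classes and mitochondrial rRNA lie far higher in Pico than in the poly(A) kits. In these classes the treatments lie close together beside that gap, although every IL-1β library of Pico is above every saline one in snRNA.

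The most counted small RNAs were 4 unnamed misc_RNA genes and 7SK. AC157822.1 and AC099934.1, on chromosome 12, are identical over their 297 bases and lie between the same protein-coding neighbours as the RefSeq genes Rn7s2 and Rn7s1, the 7SL RNA that scaffolds the signal recognition particle. AC157822.1 had 39847, 49981 and 46901 counts after IL-1β and 46009, 44334 and 44719 after saline, and its change of 0.04 was not called (limma-voom adjusted p = 0.707). AC099934.1 changed by 0.01, and AC156953.1, a locus on chromosome 6 of 85.1% identity to both, by 0.06. Because these copies share most of their sequence, their reads cannot be assigned to a copy with certainty. The main 7SK gene, which holds the elongation factor P-TEFb in an inactive complex, had 11444, 10911 and 10973 counts against 10051, 9964 and 12071 (0.09, limma-voom adjusted p = 0.464).

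AC027184.1 was the misc_RNA gene that rose. It lies between Ccnb1ip1 and Parp2 on chromosome 14, as the RefSeq gene of the RNase P RNA, Rpph1, does, and had 4909, 6269 and 5610 counts against 5105, 4511 and 4200. The change was 0.31 (limma-voom adjusted p = 0.0336), with the first IL-1β mouse below the highest saline mouse, and the call was lost when the second or the third mouse of either treatment was left out (0.22 to 0.30). RNase_MRP, the related RNA that cuts ribosomal precursors, had 1410, 1922 and 1627 counts against 1511, 1459 and 1588 and was not called. Among snoRNAs, U3, which guides the first cuts of the ribosomal precursor, had 156, 184 and 186 counts against 124, 127 and 114. It rose by 0.55, at the edge of the threshold (limma-voom adjusted p = 0.0492), and lost the call when any 1 of the 6 mice was left out. The other call, SNORA3, rested on 3, 3 and 6 counts against 1, 0 and 0.

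None of the 71 small nuclear RNA genes was called, and the 14 well-counted ones had values from -0.26 to 0.99. Their median was 0.34 with library totals and 0.47 with TMM factors. The most counted U1 gene had 798, 995 and 1006 counts against 787, 708 and 813 (0.30, limma-voom adjusted p = 0.104), and the most counted U2 gene had 856, 649 and 879 against 520, 755 and 703 (0.30, limma-voom adjusted p = 0.199). With TMM factors alone the U1 gene would have been called, at 0.43, and so would a less counted U1 gene, at 0.55. A U2 gene with 43, 49 and 49 counts against 20, 28 and 24 would also have been called, at 1.12. U1 and U2 have many copies, whose reads may be shared. The abundant snoRNAs Snord17 (-0.04) and snoU6-77 (0.01) did not pass the test, and neither did any of the Cajal body RNAs Scarna2, Scarna6, Scarna10 and Scarna13, whose values ran from -0.16 to 0.52.

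Mitochondrially encoded RNA, which is transcribed as long precursors in the organelle, made up 9.12% to 9.44% of the counts after IL-1β and 10% to 10.7% after saline. Its largest component was the large ribosomal RNA mt-Rnr2, with 155566, 156328 and 154806 counts against 172086, 191163 and 178801. With library totals this was a change of -0.19 ± 0.03 (limma-voom adjusted p = 0.000515), but it was not called with TMM factors. None of the 22 mitochondrial genes was called under both scalings, and the median of the 15 well-counted ones was -0.13 with library totals and 0.00 with TMM factors. Mitochondrial rRNA took 4.69% to 5.73% of the Pico counts and 0.0982% to 0.127% of the TruSeq counts.

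Replication-dependent histone genes took 0.0267% to 0.0344% of the counts after IL-1β and 0.036% to 0.0394% after saline. Of 63 such genes 3 were called lower and 2 higher, and only 9 were well counted. Hist1h1e (chr13:23713624-23714371, mm9, minus strand), a linker histone gene, had 250, 269 and 273 counts after IL-1β and 410, 441 and 358 after saline. It fell by 0.58 ± 0.14 (limma-voom adjusted p = 0.00978), and every IL-1β library lay below every saline library. The call was lost when any mouse but the third of the saline group was left out (-0.51 to -0.60). In the 6 TruSeq libraries the same gene had 3, 3 and 3 counts against 0, 0 and 2, too few to compare the treatments. In V4 it had 58, 21 and 21 counts against 14, 21 and 57, so the groups overlapped. The linker histone gene Hist1h1c fell from 212, 208 and 243 to 96, 86 and 117 counts, by 1.13 ± 0.19 (limma-voom adjusted p = 0.00054). Its TruSeq counts were 214, 216 and 380 against 489, 651 and 478, lower after IL-1β there too. The other 3 calls, Hist1h2af lower and Hist1h3b and Hist1h2bf higher, rested on at most 10 counts in any library.

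The remaining histone genes with a hairpin printed above were not called. Hist1h2bc had 312, 277 and 397 counts against 370, 402 and 310. It had 639 to 895 counts in the TruSeq libraries, whose totals are larger, so this is not a higher level there. Hist1h4h (-0.39) and Hist1h4d (-0.35) had 0 to 2 TruSeq counts and Hist2h2ac (0.15) 0 to 1. In V4, which also selects poly(A) tails, Hist1h2bc had 3616 to 4126 counts against 277 to 402 in Pico. This gap was wider than that between the library totals. Hist1h4h had 20 to 44 counts in V4, Hist1h1e 14 to 58 and Hist1h4d 9 to 42. These were above the TruSeq counts. Hist1h1e and Hist1h4d were still below every Pico count of the same gene, although V4 libraries hold more counts in all. V4 does not keep the strand, so its counts can include antisense reads. As a class these histones took 0.00824% to 0.0136% of the TruSeq counts and 0.0352% to 0.0442% of the V4 counts. A longer annotated form did not go with more TruSeq counts in every gene, since Hist1h1d, annotated for 3050 bases past its hairpin, had 1 to 14 and Hist1h3e, annotated for 369, had 0 to 1. Of 11 other histone genes, listed as having messages with poly(A) tails, 2 rose and 1 fell. Their median was -0.10 with library totals and 0.03 with TMM factors. These genes were not searched for a hairpin. H3f3b, which encodes the replacement histone H3.3, had 1005, 919 and 761 counts against 299, 235 and 286 (1.73 ± 0.15). The DNA damage variant H2afx rose by 1.38 ± 0.31, and Cenpa, with at most 15 counts in any library, fell.

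In all, 46 well-counted Pico genes had no more than 3 counts in any TruSeq library, of which 24 were snoRNAs, 9 small nuclear RNAs and 5 histone genes. Hist1h1e was the only one of them that was called, against 10.6% called higher and 12.9% lower of all well-counted genes. Their median count was 47.1 and their median SE 0.30.

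Among long noncoding RNAs that stay in the nucleus or host snoRNAs, 20 were tested and 2 rose. Gas5, a host of snoRNAs in its introns, had 274, 209 and 295 counts against 167, 164 and 130 (0.77 ± 0.19, limma-voom adjusted p = 0.00787), and Snhg3 had 20, 22 and 32 against 2, 1 and 13 (2.76 ± 0.73). Snhg1 (0.56), Snhg12 (0.46) and Snhg5 (0.49) were not called. Malat1 (chr19:5795690-5802671), an abundant RNA of nuclear speckles, had 26497, 23742 and 28350 counts against 35506, 35669 and 26693, and its -0.28 was not called under both scalings.

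Neat1 (chr19:5824708-5845478, mm9, minus strand), the scaffold of nuclear paraspeckles and 20.8 kb long, varied widely between mice of 1 treatment. It had 44546, 4775 and 47078 counts after IL-1β and 21051, 19309 and 3135 after saline. The groups overlapped, and the change of 1.02 ± 0.73 was not called (limma-voom adjusted p = 0.4). Within each treatment 1 mouse stood low, the second after IL-1β and the third after saline. The same 2 mice were low in the TruSeq libraries, with 13338, 2317 and 13368 counts against 5811, 6756 and 2980, and in V4, with 8544, 1094 and 9954 against 4111, 4099 and 709.

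Of other well-counted long noncoding transcripts, 1200007C13Rik rose from 4, 5 and 2 to 52, 35 and 51 counts (3.56 ± 0.62) and 9430037G07Rik by 2.35 ± 0.44. The largest falls were those of 9030622O22Rik (-3.11 ± 0.63), Gm10658 (-2.87 ± 0.58), Fam169b (-2.45 ± 0.47) and A730017L22Rik (-1.87 ± 0.31). C4a, annotated here as a processed transcript although it is a near copy of a complement gene, rose by 0.77 ± 0.25 with groups that overlapped, and was at 0.50 and not called without the third IL-1β mouse. Over the whole classes, 2 of 40 lincRNA genes at that level were called higher and 4 lower, and 2 of 44 processed transcripts higher and 6 lower.

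Long genes responded in both directions. Of 1515 genes with at least 8 kb of merged exons, 153 were called higher and 179 lower. Among the 1131 well-counted ones these were 12.8% and 14.5%, against 10.6% and 12.9% of all such genes, and their median change was -0.12 with library totals, as over all genes, and 0.02 with TMM factors. The shares grew with exon length, from 4.29% higher and 2.7% lower below 1 kb to 11.9% and 14.2% between 4 and 8 kb. The median count grew too, from 61.8 in the shortest to 191 in the longest genes, so length and depth cannot be told apart here. With the span of the locus in place of exon length, 17.6% of genes over at least 100 kb fell and 10.2% rose, with a median of -0.25 and a median count of 137. In the shortest loci, under 10 kb, 8.78% fell and 8.82% rose.

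**Figure D5:**
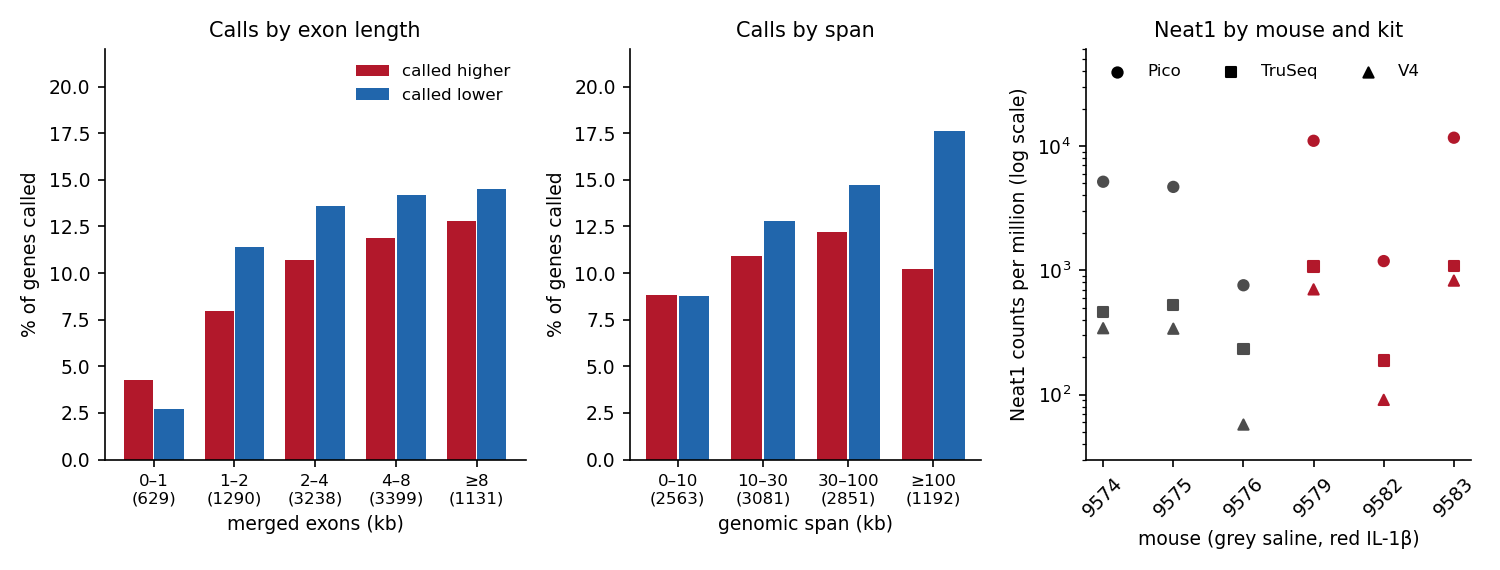
The left and middle panels give the share of genes called higher (red) and lower (blue), in %, by merged exon length and by genomic span in kb, for well-counted genes, whose number is in brackets. The right panel gives Neat1 in CPM (log scale) by mouse, with circles for Pico, squares for TruSeq and triangles for V4, and the second IL-1β mouse and the third saline mouse low in each kit.

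The 5 largest rises of long genes are given for those that averaged 50 counts or more. Tead1 (chr7:119822832-120050319), a DNA-binding partner of the Hippo pathway effectors, had 794, 760 and 730 counts against 52, 67 and 63, a rise of 3.67 ± 0.20 (limma-voom adjusted p = 2.08e-09). The centrosomal protein gene Tacc2 had 3683, 2812 and 2674 counts against 245, 210 and 283 (3.66 ± 0.17). Ikbke, an IκB kinase-related kinase, rose by 3.09 ± 0.19, the lipid flippase gene Atp11a by 2.31 ± 0.23 and Jmjd1c by 2.24 ± 0.13. All 5 had groups that did not overlap, as had 98% of all called genes and 30.1% of all genes tested. The less counted Adcy1, an adenylyl cyclase gene named after its values were seen, had 65, 40 and 56 counts against 2, 0 and 1, and a larger fitted rise than any of these. At the same mean count and over loci of at least 200 kb Nos1ap rose by 2.55 ± 0.31 and Mid1 by 2.10 ± 0.47.

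At that mean count the falls of long genes were led by Exph5 (chr9:53109775-53185619), an effector of the vesicle GTPase Rab27, with 14, 11 and 27 counts against 377, 400 and 345, a change of -4.46 ± 0.37 (limma-voom adjusted p = 4.07e-07). The planar polarity cadherin Celsr1 fell by 3.38 ± 0.66, from 56, 95 and 167 counts to 6, 7 and 15, and the ubiquitin ligase Rnf152 fell by 3.29 ± 0.47. Dixdc1 fell by 2.96 ± 0.47. Among loci of at least 200 kb with that mean count the largest falls were those of Upp2, a uridine phosphorylase, with 98, 195 and 227 counts against 1325, 1399 and 1357 (-3.03 ± 0.20), Sox5 (-2.58 ± 0.36) and Zfp385b (-2.55 ± 0.42). Of all 727 loci of at least 200 kb tested, at any mean count, 44 were called higher and 74 lower. Among the 385 well-counted ones these were 9.09% and 16.1%, against 10.6% and 12.9% of all well-counted genes.

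Lists of long genes by function are set against 10.6% higher and 12.9% lower over all well-counted genes. Well-counted chromatin and transcription regulators had 12.5% and 12.5%, cytoskeleton and scaffolds 20.8% and 25%, and the ubiquitin ligase list 11.1% and 0%. Lipid transport, receptors and matrix had 27% and 32.4%, and the list of kinases and calcium channels 12% and 24%. The lists were drawn up by name, and 132 of their 160 tested members have at least 8 kb of merged exons. Among the members named below, Cul9 (7.85 kb), Col4a1 (6.82 kb), Abca7 (6.75 kb) and Dock6 (6.69 kb) are shorter. Of 48 chromatin and transcription regulators 6 rose and 6 fell, all by less than 1 except Chd3 (-1.43 ± 0.15), a remodeller, and Zfhx4 (-1.33 ± 0.20). The largest rises were those of Brwd1 (0.63 ± 0.13) and the methyltransferase Ash1l (0.55 ± 0.11). Of 25 genes of cytoskeleton and scaffolds 5 rose, led by plectin (Plec, 0.85 ± 0.09) and the myosin Myh9 (0.65 ± 0.10), and 6 fell, led by Ank3 (-1.62 ± 0.24) and Lyst (-1.26 ± 0.15). The ubiquitin ligase list, which also holds deubiquitinases of the Usp family, had 19 genes tested. Only 3 were called, Nedd4l (0.96 ± 0.20) and Rnf213 (0.40 ± 0.12) higher and Cul9 (-2.39 ± 0.66) lower. Without the second IL-1β mouse Cul9 was at -1.42 and not called (limma-voom adjusted p = 0.132).

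Of 39 long genes of lipid transport, receptors and extracellular matrix 10 rose and 12 fell. The cholesterol exporter Abca1 had 5274, 4752 and 5027 counts against 1766, 2012 and 1949 (1.42 ± 0.08, limma-voom adjusted p = 5.14e-09). The basement membrane collagen Col4a1 had 825, 740 and 681 against 255, 226 and 159 (1.86 ± 0.17), while the cadherin Fat4 (-2.67 ± 0.58) and Abca7 (-1.45 ± 0.44) fell. In the list of kinases and calcium channels, which also holds exchange factors of the Dock family, 29 genes were tested. Of these 3 rose, among them Pik3c2a (1.12 ± 0.12) and Smg1 (0.79 ± 0.12). The 7 that fell included Dock6 (-1.54 ± 0.25) and Lrrk1 (-1.24 ± 0.38). In these lists together 26 of 160 genes rose and 32 fell. The median of the 152 well-counted members was -0.09 with library totals and 0.05 with TMM factors. Of the 132 members with at least 8 kb of merged exons 23 rose and 22 fell.

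The response in Pico was set against that of the same mice in TruSeq with an interaction of kit and treatment over 12 libraries. Of 17207 genes counted with both kits, 0 passed an adjusted p of 0.05 in limma-voom (0%), with 945 (5.49%) at an unadjusted p under 0.05. With the mouse as a replicate block, since RNA of 1 mouse entered both kits, 1 gene passed. This was complement C3, which rose by 0.59 ± 0.05 in Pico and by 0.83 ± 0.09 in TruSeq (limma-voom adjusted p of the difference 0.00151 with the block and 0.9 without it). Among genes with at least 8 kb of exons 64 of 1489 had an unadjusted p under 0.05, as had 4 of 40 histone genes, 5 of 61 small RNAs and 3 of 16 mitochondrial genes. Saa3, at 9.66 in Pico and 9.30 in TruSeq, Tead1, at 3.67 and 3.74, and Cyp7a1, at -5.93 and -5.84, were not called in this test. The small RNAs and most hairpin-ended histones have too few TruSeq counts for such a comparison.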

How the data were processed

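The values are counts that the authors deposited, in whole reads per gene and library. Per the labels reads were aligned to mm9 with GSNAP. By the study's methods the PORT pipeline normalized by resampling reads and counted those that respect annotated junctions, and the tables used are the sense-strand ones for Pico and TruSeq. Whether ribosomal reads were taken out before counting is not given in the sources used here. The totals are nearly equal within a kit, so they do not show the depth before resampling, and they limit what can be seen in weakly counted genes. The Pico preparation was repeated in the study, and which run the table holds is not given in the sources used here. All 18108 gene identifiers were found in GENCODE vM1 (mm9), which gave coordinates, exon lengths and classes.

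The 3 mice of a group are separate animals. No 2 libraries of a group were alike within sampling noise. Counts were fitted with limma-voom (limma 3.58.1, R 4.3.3), as in the study, with Benjamini-Hochberg adjustment over all genes above 0 in at least 1 of the 6 libraries. A gene was called at an adjusted p of at most 0.05 with library totals and with TMM factors. Printed errors are standard errors of the fit. Alternatives were edgeR 4.0.16, DESeq2 1.42.0, each scaling alone, totals without mitochondrial genes, a filter of 10 counts in 3 libraries, other thresholds, other definitions of a long gene and leaving out each mouse. The fits were tested on simulated data. Mouse numbers pair Pico and TruSeq libraries because RNA of the same animal entered both kits. Deviations from group means correlated by 0.182 to 0.423 within a mouse. Between mice of a group the values were -0.343 to -0.0466, but deviations within a group sum to 0, which pulls these values below 0.

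Named genes were the 6 largest called rises and falls with a mean of at least 50 counts and groups that do not overlap, the 2 largest each way in each list with a mean of at least 10, Saa1, Saa2, Lcn2, Hp and Alb, the 5 largest each way among long genes and 3 among loci of at least 200 kb, the members of RNA lists without poly(A) tails with a mean of at least 20, the 3 most counted and 3 most changed of each small RNA class, and 4 each way among long noncoding RNAs. Other members were named after their values were seen. The genes and the 27 lists were chosen with earlier results of these data known. Intervals and floors cover counting error only. Promoter sequences and names of unnamed RNA loci came from RefSeq (GRCm38.p6), and hairpins from the mm9 genome. Python 3.11.15 with pandas 2.3.3 and scipy 1.17.1 made the summaries. Some RNAs that the lists name have no row in the Pico table and were not analysed here. A gene that the naming rule picks is not reported here.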

Additional observations from a re-analysis of the deposited data

How the results depend on the processing

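The counts of genes higher (1228) and genes lower (1478) stayed within 1.5 times under each scaling alone, totals without mitochondrial genes, edgeR, DESeq2, the filter on low counts and an adjusted p of 0.1. At 0.01 they were 756 and 857. With a mouse left out they ran from 741 to 971 and from 790 to 1306, lowest without the second IL-1β mouse (741 and 790), and genes lower also dropped without the first (914) and the third (924) IL-1β mouse. The long genes higher (153) and long genes lower (179) came to 93 and 108 at 0.01, and edgeR called 234 higher. They ranged from 84 to 126 and from 101 to 160 with a mouse left out, lowest without the second IL-1β mouse, and 119 fell without the first. As other definitions hold other numbers of genes, there were 66 and 79 with a longest transcript of at least 8 kb, 310 and 387 with exons of at least 6 kb, and 71 and 89 with exons of at least 10 kb, with 13% called higher and 14.7% to 15.9% lower of those well counted.

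Of the histone genes, the 2 called higher were 1 in edgeR and 0 in DESeq2, under the filter and at 0.01, and 0 to 1 with a mouse left out. The 3 called lower were 1 at 0.01 and 1 to 2 with a mouse left out. Small RNAs, 1 higher, came to 4 with TMM factors alone, 0 with totals without mitochondrial genes, 5 in edgeR, 4 in DESeq2, 2 under the filter, 3 at 0.1, 0 at 0.01 and 0 to 1 with a mouse left out. The count of lower small RNAs, 0, was 1 in edgeR and 0 to 1 with a mouse left out. The mouse as a replicate block gave 1 gene in the interaction in place of 0 and changed no other count, as no other test spans 2 kits.

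None of the 112 called genes named here changed sign under any alternative run, and 29 lost the call in at least 1, all of them with a mouse left out. They included AC027184.1, Abca7, Alb, Baat, C4a, Celsr1, Cul9, Cxcl11, Cyp4a31, Fat4, Gadd45a, Gas5, H2afx, Hist1h1e, Igfbp1, Irak2, Lrrk1, Mid1, Nedd4l, Per1, Pfkfb3, Rnf213, SNORA3, Serpina6, Snhg3, Socs3, Sqle and U3. In edgeR, which here gave all genes 1 common spread about a trend, Neat1 was called (1.33, adjusted p = 3.82e-36) although its groups overlap.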

Other observations

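A few regulators differed widely between mice of 1 treatment, as Neat1 did, and are given as values only, chosen after they were seen. Bcl6, a repressor of growth hormone target genes, had 105, 74 and 15 counts in the IL-1β mice and 414, 383 and 26 in the saline mice. In TruSeq the same order held, with 288, 142 and 118 against 953, 883 and 85. Cish, a feedback inhibitor of cytokine receptors, had 46, 63 and 103 counts against 27, 10 and 102 in Pico, and 200, 275 and 477 against 57, 66 and 461 in TruSeq. Onecut1, a liver transcription factor, had 44, 75 and 164 counts against 117, 55 and 606, and 20, 22 and 81 against 26, 29 and 347 in TruSeq. In both kits the third saline mouse was lowest of its group in Bcl6 and highest in Cish and Onecut1, and the third IL-1β mouse stood likewise in its group. None of these 3 genes was called in Pico, with adjusted p in limma-voom of 0.28, 0.175 and 0.406. Neat1 was low in the third saline mouse and the second IL-1β mouse.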
